A study of Mus musculus with 577 samples.

Results

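The 8 genes described here, Bcl2l10, Mcl1, Bcl2, Bcl2l1, Bcl2l11, Bok, Bax and Bad, belong to the Bcl2 family. They were taken by symbol, as 8 of the 22060 protein-coding genes counted in every table, and all 8 were present in every gene count table. The study asked whether single cells cut by laser from stained sections of mouse ovary (laser capture microdissection, LCM) give transcriptomes like those of dissociated cells. It profiled oocytes, the granulosa cells around them and mouse embryonic stem cells (mESCs) in 577 samples. Levels are RPM, a gene's reads divided by the library's reads on protein-coding genes and multiplied by 1000000, and differences are between group means of log2(RPM + 1).

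Proteins of the Bcl2 family decide whether the mitochondrial outer membrane is opened, the step that releases cytochrome c and starts the caspases of the intrinsic pathway of apoptosis. Bcl2, Bcl2l1 (Bcl-xL) and Mcl1 bind and restrain other members, and Bcl2l10 (Diva, or Boo) is a relative of these that has been described as acting in either direction. Bax and Bok are of the pore-forming type, and Bcl2l11 (Bim) and Bad are BH3-only proteins that act on the others. In the ovary most follicles are lost by atresia, in which granulosa cells die, and Bcl2l10 is known as a gene of the oocyte.

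Ovaries came from 8-week-old female mice and were frozen and sectioned, and the sections were stained with cresyl violet. Oocytes were labelled primary or secondary-antral by their follicle, and granulosa cells neighboring or non-neighboring by their contact with the oocyte. On alcohol-fixed sections, DRaqL, a lysis by the detergent deoxycholate that is then quenched, was joined to SC3-seq, which sequences the 3-prime ends of amplified cDNA (14 primary and 30 secondary-antral oocytes, 31 neighboring and 26 non-neighboring granulosa cells). Other alcohol-fixed cells went through SMART-Seq v4 without DRaqL (7 and 11 oocytes, 17 and 17 granulosa cells) or with it (6 and 9 oocytes, 20 and 19 granulosa cells), LCM-seq (17 and 20 granulosa cells) or DRaqL-Smart-seq2 (15 and 19 granulosa cells). Sections fixed in formalin for 24 h gave 5 primary and 7 secondary-antral oocytes and 12 and 12 granulosa cells, lysed with DRaqL and a protease. From 1 proestrus mouse, the sectioned ovary gave 8 secondary-antral oocytes and 35 and 35 granulosa cells, and the other ovary gave 14 grown oocytes and 14 attached and 21 loose granulosa cells, freshly dissociated from cumulus-oocyte complexes with a cAMP analog. The mESCs, of 1 culture in 2i and LIF, were freshly dissociated (45) or cut from cell-block sections (36). Further libraries held pools of about 10 granulosa cells (7 of each position), whole granulosa of 7 sectioned follicles, 2 serial sections each of 8 oocytes, and exon-wide sequencing of 5 oocytes and 10 mESCs. The strain is not given in the sources used here.

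Each single-cell library is 1 cell and no label names the animal, so each labelled group of an experiment stands for 1 sample: its values are given with the SD over cells and no test was made. Only the pools were tested. Single-cell libraries held 12748 to 6749468 reads on protein-coding genes, the shallowest being freshly dissociated granulosa cells, and the 14 pools 3811945 to 8259281. Oocyte markers (13 genes, Bcl2l10 not among them) had medians of 9347 RPM in primary and 33877 RPM in secondary-antral oocytes of the SC3-seq experiment, and the 5 pluripotency markers a median of 1524 RPM in fresh mESCs. Granulosa markers were found in all granulosa groups, and at lower medians in oocytes. Those medians were higher in primary than in secondary-antral oocytes of SC3-seq (463 against 142 RPM) and SMART-Seq v4 (561 against 380 RPM). The same held with DRaqL and SMART-Seq v4 (362 against 194 RPM) and in formalin (927 against 556 RPM). Their part in the differences by stage was not tested. Among the 14 primary oocyte libraries of SC3-seq, 5 pairs were picked as each other's nearest and apart from the next. They correlated at r of 0.929 to 0.976, as sections of the same oocyte did (0.889 to 0.975, 8 pairs), against 0.682 to 0.855 in the other 86 pairs. Whether the libraries of a pair hold the same oocyte is not known, and if they do, there were at most 9 distinct profiles. Averaging these pairs, and the like pair among non-neighboring cells, turned the differences of Mcl1 by stage and by position in SC3-seq, both near 0, and took Bok by stage below 2-fold. All neighboring and non-neighboring cells carried separate in-line indexes in the SMART-Seq v4, LCM-seq, DRaqL-Smart-seq2 and formalin tables, and oocyte stages mostly separate library pools in the SMART-Seq v4 tables, so that index or pool and group cannot be told apart there.

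Sequences across exon junctions are shown for the 3 members whose spliced reads bear on the results. Each has the last 15 bases of one exon in capitals and the first 15 of the next in lower case, 5-prime to 3-prime on the gene's strand, read from GRCm38 with the GENCODE M21 transcripts. The positions are the last base of the exon before and the first base of the exon after, in chromosome order.
Bcl2l10, exon 1 to 2, chr9:75348355-75351011, plus strand: GCTCTCGGCGGCTGGgatggcttttgccgc
Mcl1, exon 2 to 3, chr3:95660008-95660707, plus strand: AAACAAAGAGGCTGGgatgggtttgtggag
Bax, exon 2 to 3, chr7:45466123-45466220, minus strand: CTTTTTGCTACAGGGtttcatccaggatcg
Bax, exon 3 to 4, chr7:45465324-45465977, minus strand: TATGGAGCTGCAGAGgatgattgctgacgt
Bax, exon 4 to 5, chr7:45463503-45465189, minus strand: AAACTGGTGCTCAAGgccctgtgcactaaa
Bax, exon 5 to 6, chr7:45461966-45463399, minus strand: GACCAGGGTGGCTGGgaaggcctcctctcc

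Bcl2l10 (ENSMUSG00000032191, chr9:75347758-75351632, plus strand) has 1 annotated transcript of 2 exons. In 5 secondary-antral oocytes sequenced along the whole cDNA, 61760 reads lay on exon 2 (622 bases, 99.3 reads per base) and 7437 on exon 1 (598 bases, 12.4 reads per base), so that coverage was concentrated at the 3-prime exon. Of 2139 reads on the 3 junctions of the gene with 10 or more reads, 2053 (96.0%, 95% Clopper-Pearson interval 95.1 to 96.8) were on 1 junction, present in every oocyte at 297 to 554 reads. The oocyte table gives no junction coordinates, and the annotation holds a single junction for this gene, the one printed above. Another 2 junctions took 3.04% and 0.982% of the reads, and junctions under 10 reads were left out. Intervals and floors of read counts cover counting error only, since no molecular identifiers were used. Intervals of shares of cells, given below, cover only the drawing of cells within 1 sample.

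Bax needs a statement before its levels are read. The study assigned reads to a gene also within 10 kb downstream of its annotated 3-prime end. Ftl1, which encodes the ferritin light chain, lies at chr7:45457944-45459884 on the same strand and begins 1813 bases past the 3-prime end of Bax (ENSMUSG00000003873, chr7:45461697-45466898, minus strand), inside that window. In the 5 exon-sequenced oocytes, all 6 Bax exons together (869 bases) held 91 reads against 336 reads counted for Bax in the SC3-seq libraries of the same names, or 0.271 exon reads per 3-prime read. For Bcl2l10 the same ratio was 2.90, and for the other members the best covered exon alone gave 1.58 to 2.26. The 1.58 is that of Bcl2, whose 199 reads on that exon all came from 1 oocyte. In the 10 mESCs Bax had 1301 exon reads against 2763 3-prime reads (0.471), and its best covered exon alone gave 0.132, against 1.80 for Mcl1, 4.56 for Bcl2l1, 3.26 for Bad, 1.26 for Bcl2l11, 0.764 for Bok and 0.75 for Bcl2 (3 reads against 4). Across cells, log2(RPM + 1) of Bax and Ftl1 had Pearson r of 0.970 over 44 SC3-seq oocytes, 0.857 over 57 granulosa cells and 0.363 over 81 mESCs, cells of an experiment sharing library preparation and depth. In the same-mouse tables the count of Bax was 62.4% to 69.7% of that of Ftl1. In the other cells it ran from 4.11% (formalin-fixed oocytes) to 44.1% (oocytes of DRaqL and SMART-Seq v4). Reads of Bax and of Ftl1 thus cannot be told apart in the 3-prime counts, and each Bax count below is read with this limit. Of the genes in the count tables, those near the other members lie on the opposite strand (Thap4 and Plcb3 downstream of Bok and Bad, and Gpr137, which overlaps Bad). Mir3473f and Gm37053, which overlap Bcl2, and Gm23802, near Bcl2l1, are annotated on the same strand but are not in the tables. The sources used here do not say whether counting used strand.

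**Figure D1:**
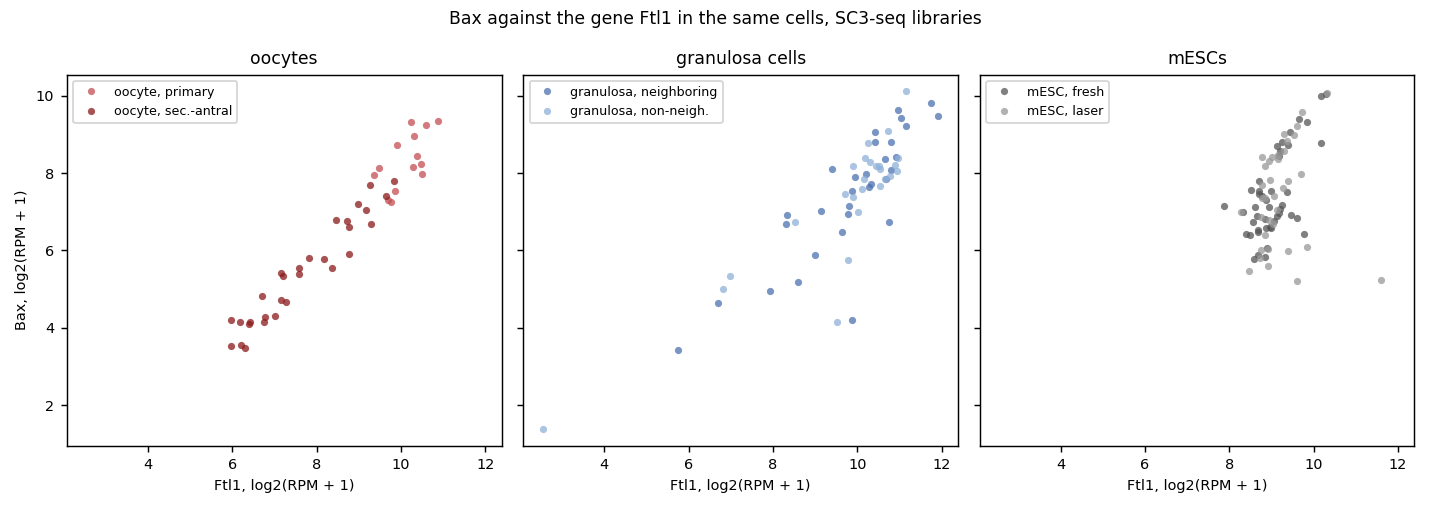
Each point is a cell of an SC3-seq experiment, with log2(RPM + 1) of Ftl1 on the x axis and of Bax on the y axis, for 44 oocytes, 57 granulosa cells and 81 mESCs. The ovarian cells lie along a line (r = 0.970 and 0.857), and the mESCs spread away from one (r = 0.363).

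The first comparison was of oocytes by follicle stage, within each of 4 experiments. Bcl2l10 was far higher in secondary-antral than in primary oocytes in all 4, with groups that did not overlap. The share of all genes whose groups do not overlap was not computed, here or in the comparisons below. Bcl2 and Bax were lower in secondary-antral oocytes in all 4, and Bcl2l1 and Bcl2l11 were higher in all 4, though relative to ERCC spike-in reads Bax turned in 1 of the 3 experiments that have them. Mcl1 and Bad were lower by less, within the larger of the SDs over oocytes in each experiment but higher per ERCC read in all 3, and Bok went either way. By size, called as a difference past 2-fold, 6 of 8 members passed in SC3-seq (5 with the pairs averaged), where 47.7% of 12859 genes did, 5 in SMART-Seq v4 (48.4%), 8 in DRaqL and SMART-Seq v4 (57%) and 4 in formalin (51.6%). With so many genes past this size, such counts say little about the members, and the sizes of single genes are described instead. The median difference over all genes was 0.33, 0.31, 0.28 and -0.012 in these experiments.

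In SC3-seq the lowest, median and highest levels of Bcl2l10 were 10.6, 119 and 293 RPM in primary oocytes and 392, 2910.1 and 4494 RPM in secondary-antral oocytes. The means of log2(RPM + 1) were 6.37 ± 1.36 (SD, n = 14) and 11.12 ± 0.95 (SD, n = 30), a difference of 4.75 or 26.9-fold. The difference exceeded the spread over cells in either group, and was 4.55 with the 5 pairs averaged. In SMART-Seq v4 the levels were 0, 20.8 and 80.5 RPM against 452, 1302 and 2360.0 RPM. With DRaqL added they were 0, 15.5 and 38.5 RPM against 1114, 2001 and 3214 RPM. In both kits the lowest secondary-antral oocyte stood above the highest primary oocyte, and the differences were 6.54 and 7.88. The 5 primary oocytes fixed in formalin had 35.6, 22.5, 109.2, 9.73 and 77.4 RPM, and the 7 secondary-antral oocytes 609, 2389 and 3444 RPM, a difference of 5.67. The separation held in formalin-fixed tissue too.

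Among the members that restrain others, Bcl2 (ENSMUSG00000057329, chr1:106538178-106714274, minus strand) went the opposite way to Bcl2l10. In SC3-seq it had 1.35, 84.2 and 228 RPM in primary and 0, 4.66 and 62.5 RPM in secondary-antral oocytes, and the groups overlapped. The means were 5.68 ± 2.11 (SD, n = 14) and 2.44 ± 1.79 (SD, n = 30), a difference of -3.24 (-2.87 with pairs averaged). The formalin-fixed primary oocytes had 177, 570.4, 95.1, 119 and 50.5 RPM and the secondary-antral oocytes 5.29, 8.36 and 46.1 RPM, with no overlap and a difference of -3.56. The differences in SMART-Seq v4 and in its DRaqL form were -1.58 and -2.93, with overlapping groups.

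Bcl2l1 (ENSMUSG00000007659, chr2:152780668-152831728, minus strand) encodes Bcl-xL, which restrains Bax. It was evenly expressed in secondary-antral oocytes, with 108.3, 155 and 218 RPM in SC3-seq, while primary oocytes had 10.7, 101.5 and 177 RPM. Its SD over cells was 0.28 in the former and 1.25 in the latter. The differences were 1.05 (1.02 with pairs averaged), 1.08, 2.85 and 0.71 in the 4 experiments, the last under 2-fold, and the groups overlapped in all. Mcl1 (ENSMUSG00000038612, chr3:95658788-95663176, plus strand), a short-lived protein that holds back Bax and its relatives, had 1.54, 40.6 and 236 RPM in primary and 5.45, 28.9 and 63.3 RPM in secondary-antral oocytes of SC3-seq. Its differences of -0.035 (0.085 with pairs averaged), -0.12, -1.34 and -0.65 were within the larger of the SDs over oocytes in each experiment.

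Of the pore-forming members, the count of Bax was lower in secondary-antral oocytes in each experiment, as that of Ftl1 was. In SC3-seq Bax had 151, 294 and 655 RPM in primary and 10.2, 41.2 and 221 RPM in secondary-antral oocytes. The differences of Bax were -2.90 (-2.84 with pairs averaged), -1.84, -2.23 and -2.62, beside -2.46, -1.89, -2.66 and -1.37 for Ftl1. The groups of Bax did not overlap in either SMART-Seq v4 table. The part of Ftl1 in these values was not tested. Bok (ENSMUSG00000026278, chr1:93685660-93695764, plus strand) had 0, 0.977 and 36.4 RPM and 0, 7.60 and 90.0 RPM by stage in SC3-seq, and its differences took both signs (1.08, or 0.94 with pairs averaged, -0.34, 1.31 and -1.73).

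Of the BH3-only members, Bcl2l11 (ENSMUSG00000027381, chr2:128126038-128162547, plus strand) was found in all 30 secondary-antral oocytes of SC3-seq at 1.99, 21.9 and 51.9 RPM. In primary oocytes it had a read in 11 of 14, at 0, 1.78 and 281 RPM. The secondary-antral level was thus less scattered, with an SD of 0.89 against 2.31 on the log2 scale, and the differences of means were 2.03, 2.46, 2.24 and 0.49. In SC3-seq the difference was 1.88 with pairs averaged and 0.11 on summed counts, which weight the cells by depth. Bad (ENSMUSG00000024959, chr19:6941861-6951899, plus strand), which phosphorylation by survival kinases holds inactive, had 0, 9.93 and 121 RPM in primary and 3.19, 10.1 and 64.5 RPM in secondary-antral oocytes. Its differences were -0.069 (-0.17 with pairs averaged), -0.81, -1.58 and -0.95, and the groups overlapped in all 4 experiments.

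RPM is a share of each cell's reads. Where synthetic ERCC spike-in RNA was counted, its median share was 1.36% in secondary-antral against 5.08% in primary oocytes of SMART-Seq v4, 0.736% against 7.76% with DRaqL, and 3.67% against 12.7% in formalin. Per ERCC read the median gene was higher in secondary-antral oocytes by 1.84, 2.81 and 1.59 log2 units. On that scale Bcl2l10 was higher by 7.91, 10.20 and 7.34, and Bcl2 still lower by 0.33, 0.58 and 1.40 log2 units, given as differences of -0.33, -0.58 and -1.40. Mcl1 and Bad, lower in RPM, were higher per ERCC read in all 3 (Mcl1 by 1.51, 1.58 and 0.96, Bad by 0.92, 1.16 and 0.71), and Bax was at -0.036, 0.89 and -0.84. For these members the direction rests on the scale.

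**Figure D2:**
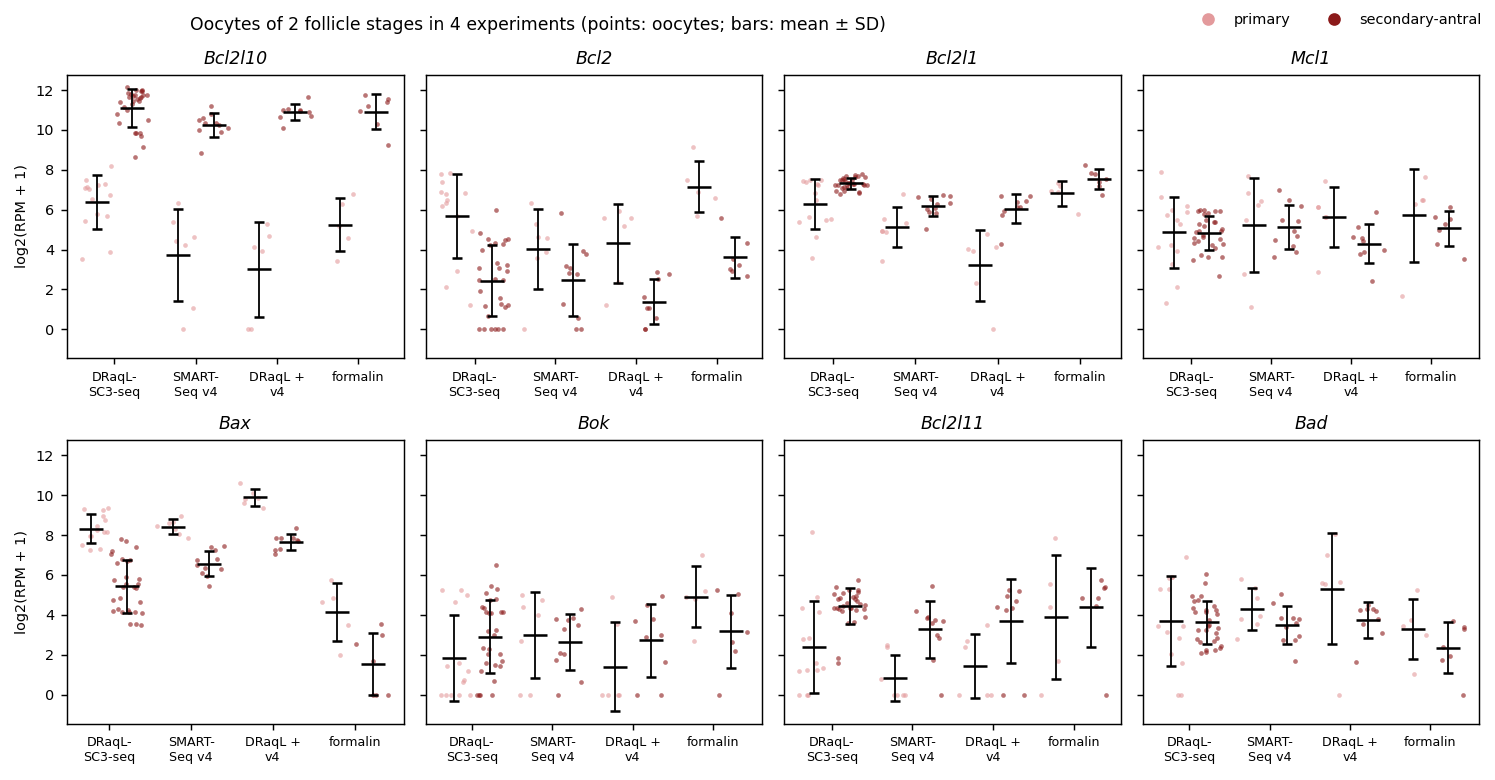
Levels of the 8 members as log2(RPM + 1) in oocytes of primary (light) and secondary-antral (dark) follicles in 4 experiments, 1 panel per gene; points are oocytes and bars the mean ± SD. Of the 8 members, Bcl2l10 alone has stages that do not overlap in any of the 4 experiments, and the share of all genes that do so was not computed. In RPM Bcl2 and Bax are lower in the darker group (Bax turns per ERCC read with DRaqL and SMART-Seq v4) and Mcl1 overlaps throughout.

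Levels in 2 serial sections of the same secondary-antral oocyte show how far a value varies between sections at their depth, 4232302 to 17506401 reads. The single oocytes of SC3-seq held fewer, 873206 to 2338750 reads, and agreement at lower depth was not examined. Bcl2l10 was between 11.44 and 12.30 log2(RPM + 1) in all 16 sections, with a median difference of 0.20 and a largest of 0.59 between sections of an oocyte (n = 8 oocytes). Bcl2l1 differed by at most 0.78 and Bcl2l11 by at most 1.24. By the largest difference the sections of an oocyte disagreed most for Mcl1 (3.88), Bad (3.41), Bax (2.89) and Bok (2.84), and by the median for Bcl2 (1.18, largest 1.76), ahead of Bok (1.04), Bad (0.82), Bax (0.73) and Mcl1 (0.57). The levels of these 5 in a single section are less precise than those of Bcl2l10 and Bcl2l1.

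Over the 44 oocytes of SC3-seq, genes were ranked by the correlation of log2(RPM + 1) with each member among 7220 genes, a description in which cells share stage, library and depth. The genes most like Bcl2l10 were Omt2a (r = 0.974), Bmp15 (0.971), a growth factor secreted by the oocyte, and Oosp1 (0.964), and 841 genes reached 0.7. Bax was most like Ftl1 (0.970), ahead of Gm10709 (0.957) and Rps10 (0.943). For Bcl2 they were Gstm2 (0.805), Hdac6 (0.801) and Ctsl (0.801), and for Bcl2l1 Fbxl5 (0.824), Trak1 (0.818) and Msh6 (0.817). Bcl2l11 was led by Atg5 (0.791), Mcl1 by Desi1 (0.782) and Bad by Ccdc12 (0.755). No gene reached 0.7 with Bok. Within the 30 secondary-antral oocytes alone (7580 genes) Ftl1 was again first for Bax (0.961), and the leading genes of the other members were different ones, such as Trim75 for Bcl2l10 (0.977) and Ubqln4 for Bok (0.716), while none reached 0.7 with Bcl2l1 (highest 0.665).

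The second comparison was of oocytes with granulosa cells, within the 6 experiments that hold both. Bcl2l10 was the member higher in oocytes by the most in each, and Bok the one lower in oocytes in each, by little in SMART-Seq v4. The median over all genes was itself higher in oocytes by 2.06, 2.10, 1.09, 1.14, 1.83 and 1.79 log2 units. Past 2-fold were 8 of 8 members in SC3-seq (background 78.6%), 6 in SMART-Seq v4 (79.2%), 3 with DRaqL (63.3%), 5 in formalin (62.5%), and 5 and 7 in the laser-captured (76.2%) and fresh (77.9%) cells of the same mouse. Counts near such backgrounds say nothing about the members.

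Bcl2l10 in SC3-seq granulosa cells was at 0, 14.9 and 2712 RPM (lowest, median and highest of 57), against a median of 1619 RPM over 44 oocytes. Its differences were 5.12, 5.74, 5.90, 5.65, 7.47 and 8.46 in the 6 experiments, the last 2 being 2.99 and 6.01 on summed counts. The groups were apart only in the freshly dissociated cells, and in every laser-captured table some granulosa cells stood above the lowest oocyte. With DRaqL and SMART-Seq v4 and in formalin this held against primary oocytes only. The highest granulosa cells there were at 303 and 537 RPM. Bok was instead lower in oocytes by the mean, with medians of 198 RPM in granulosa cells and 3.48 RPM in oocytes of SC3-seq and differences of -3.61, -0.064, -2.76, -1.81, -3.49 and -4.92. In whole granulosa of 7 follicles Bok had 119, 169.7 and 468 RPM and Bcl2l10 0.134, 24.8 and 147 RPM. In such bulk samples and in pools, fewer cells of a type and less RNA per cell cannot be told apart.

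Bcl2l1 was higher in oocytes by 2.69, 3.09, 1.16, 2.83, 3.44 and 3.09, above the median shift of all genes in each experiment. On summed counts it was at -0.15 in SMART-Seq v4, 0.84 in formalin, and 0.45 and 0.95 in the laser-captured and fresh cells of the same mouse. Other members depended on the summary too: on summed counts Mcl1, Bcl2, Bcl2l11 and Bad were lower in oocytes of SC3-seq by values of -1.11, -0.63, -1.33 and -0.77, although the mean of log2 values put them higher by 1.98, 1.49, 1.41 and 1.96. These 4 genes had a read in 20 (Bad) to 31 (Mcl1) of 57 granulosa cells, with highest values of 608 (Bad) to 1006 RPM (Mcl1). Bax differed by -1.04, 1.31, -0.98, -0.67, -0.55 and -4.27, and Ftl1 by -1.34, -0.043, -1.44, -0.47, -0.95 and -4.35.

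In mESCs Bcl2l10 had no read in any of 81 cells, which allows up to 0.0188 RPM over their summed reads, and the exon-wide libraries held 3 reads on its 2 exons in 10 cells. Bcl2 was close to absent too, with a read in 15 of 81 cells and a highest value of 0.858 RPM. Mcl1 and Bax were found in every mESC, Mcl1 at 14.7, 161 and 526 RPM. Bcl2l1 had a read in 67 cells at a median of 2.27 RPM, Bad in 65 at 1.42 RPM, Bok in 53 at 1.05 RPM and Bcl2l11 in 39. The mESC junction reads of these members were all on annotated junctions. For Bax, of 390 reads, 128 (32.8%, 28.2 to 37.7) crossed from exon 5 to 6, 148 (37.9%) from exon 4 to 5, 93 (23.8%) from exon 3 to 4 and 21 (5.38%) from exon 2 to 3, so that Bax itself is transcribed and spliced in mESCs. In the 5 oocytes only 10 and 9 reads lay on the best covered Bax junctions. Mcl1 had 50 reads from exon 2 to 3 and 6 from exon 1 to 2 in mESCs, and Bad 65 and 15 on its 2 junctions.

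**Figure D3:**
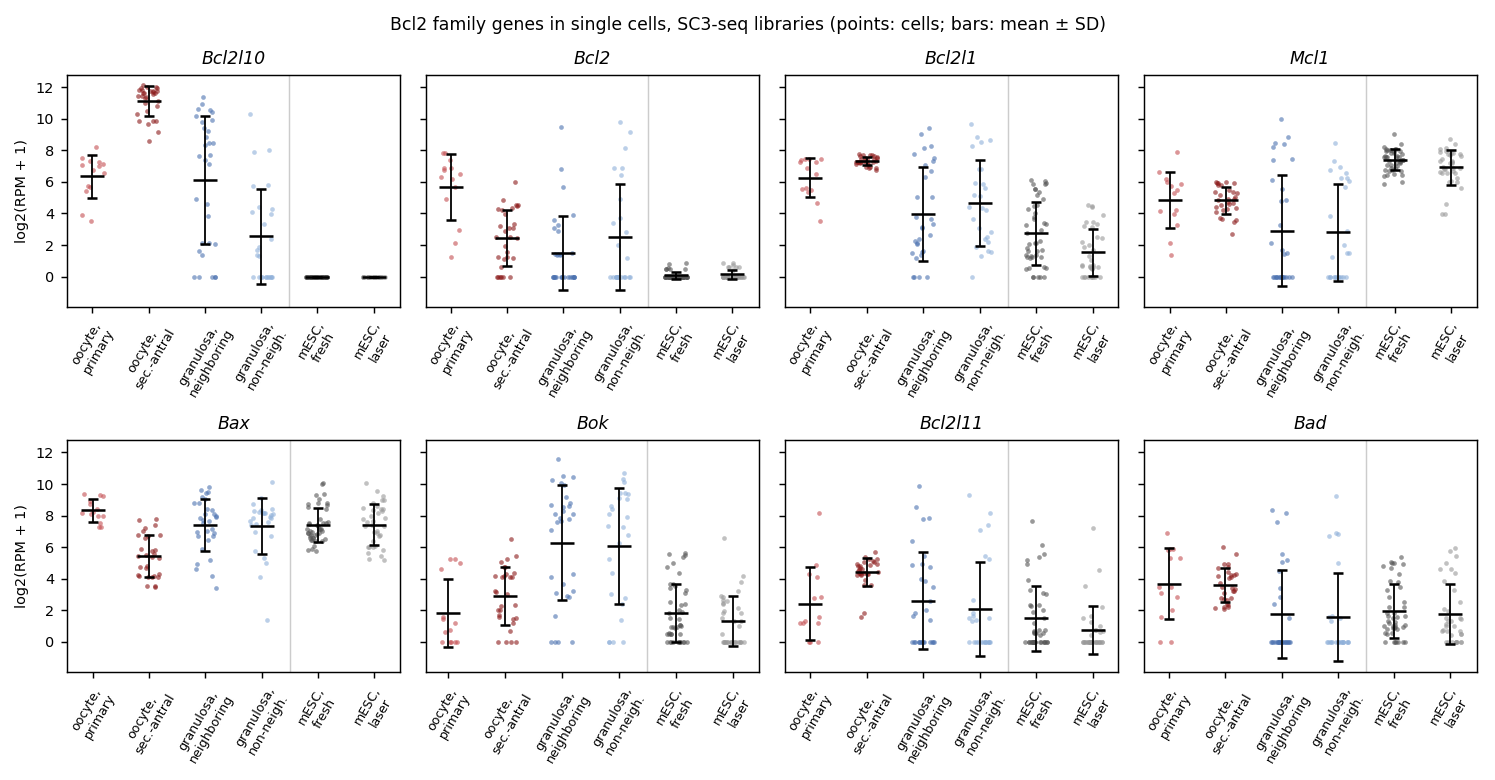
Levels of the 8 members as log2(RPM + 1) in SC3-seq cells, 1 panel per gene, by oocyte stage, granulosa position and mESC collection; points are cells and bars the mean ± SD. Bcl2l10 is highest in secondary-antral oocytes and at 0 in all 81 mESCs, Bok is highest in granulosa cells, and Mcl1 is narrow in mESCs (SD 0.66 in fresh cells) and wide in granulosa cells.

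The third comparison was of granulosa cells neighboring the oocyte with those that did not, in 8 single-cell experiments. Bcl2l10 was higher in neighboring cells in all 8, by 1.51 to 5.54 log2 units, and the groups overlapped in each. Bok was higher in 7 of 8, past 2-fold in 5, and Mcl1 was lower in 6, past 2-fold in 5, of which that of the fresh cells turned within library pools. The number of members past 2-fold was 1 in SC3-seq (background 20.3%), 3 in SMART-Seq v4 (31.8%), 4 with DRaqL (28.1%), 4 in LCM-seq (27.6%), 3 in DRaqL-Smart-seq2 (21.9%), 6 in formalin (34.4%), and 3 and 4 in the laser-captured (20.8%) and fresh (52.5%) cells of the same mouse.

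In SC3-seq Bcl2l10 had 0, 198 and 2712 RPM in neighboring and 0, 1.90 and 1259.8 RPM in non-neighboring cells. It had a read in 26 of 31 neighboring cells (83.9%, 66.3 to 94.5, Clopper-Pearson) and in 15 of 26 non-neighboring cells (57.7%, 36.9 to 76.6). These intervals are over cells within 1 sample each and do not compare the positions. The mean log2 levels were 6.09 ± 4.05 (SD, n = 31) and 2.56 ± 3.01 (SD, n = 26), a difference of 3.53 that lay within the SD over neighboring cells. The difference exceeded both SDs in LCM-seq (5.54) and DRaqL-Smart-seq2 (4.49) alone. Summed over cells, the levels were 552 RPM (541 to 562) and 74.9 RPM (70.4 to 79.6), with exact Poisson intervals. In DRaqL-Smart-seq2 the values were 0, 92.6 and 572 RPM and 0, 1.01 and 297 RPM, and in LCM-seq 0, 219.7 and 766 RPM and 0, 0 and 286 RPM. Formalin-fixed cells had 0, 80.3 and 537 RPM and 0, 0 and 227 RPM. In all of these the neighboring median was above 0 by far and the non-neighboring median at or near 0. Cells of SMART-Seq v4 had a read in 7 of 17 against 2 of 17, and with DRaqL in 11 of 20 against 1 of 19.

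Oocyte markers moved with Bcl2l10 in these cells. Summed over the 13 genes, all of which had reads in both SC3-seq groups, they ran from 0 to 15792 RPM in neighboring cells (median 1877) and from 0 to 13095 RPM in non-neighboring cells (median 54.3), with 12 of 31 and 3 of 26 cells at or above 3013 RPM, 10% of the median oocyte, the bound set for cells to leave out. The other experiments had marker medians of 119 to 1332 RPM in neighboring and 5.00 to 155 RPM in non-neighboring cells, higher in neighboring cells in all but the fresh cells of the same mouse. Over cells the log2 levels of Bcl2l10 and of the marker list had r of 0.697 (neighboring, n = 31) and 0.851 (non-neighboring, n = 26) in SC3-seq, and 0.902 (n = 15) and 0.904 (n = 19) in DRaqL-Smart-seq2, within cells that share library and depth. It was lowest in non-neighboring cells of SMART-Seq v4 (0.399), of its DRaqL form (0.376) and of LCM-seq (0.390), where 2 of 17, 1 of 19 and 6 of 20 cells had a Bcl2l10 read. Summed over cells, Bcl2l10 RPM per RPM of oocyte markers was 0.0705 in oocytes, 0.143 in neighboring and 0.0703 in non-neighboring cells of SC3-seq. Neighboring cells were also above oocytes in laser-captured cells of the same mouse (0.151 against 0.0697) and in SMART-Seq v4 (0.0762 against 0.0417). They were above by less with DRaqL and SMART-Seq v4 (0.08002 against 0.0702) and in formalin (0.0804 against 0.0725). In fresh cells they were below oocytes (0.0896 against 0.109). Without the cells at or above the bound, Bcl2l10 was still higher in neighboring cells of SC3-seq (4.96 ± 3.95, SD, n = 19, against 1.84 ± 2.28, n = 23) and of the other laser-captured experiments, by 1.30 to 4.58. The part of the oocyte markers in the difference was not tested. The 3 granulosa cells that the study set apart for a mixed profile had 2180 RPM (1 neighboring) and 134 and 190.4 RPM (2 non-neighboring).

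In freshly dissociated cells the difference did not hold under other settings. Attached cells had 0, 35.6 and 1735 RPM and loose cells 0, 11.6 and 202 RPM, each with a read in 57.1% of cells, and the difference of 1.51 became -0.093 without the 3 cells high in oocyte markers, -0.97 without libraries under 100000 reads and -0.91 with these left out and the remaining 6 attached and 14 loose cells thinned to 106405 reads each. These were also the libraries in which most genes were lower in neighboring cells (median of all genes -0.95). In the laser-captured cells of the same mouse the values were 0, 16.4 and 6457 RPM and 0, 0.918 and 474 RPM, and the difference of 2.02 was 2.00 without the cells high in oocyte markers.

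**Figure D4:**
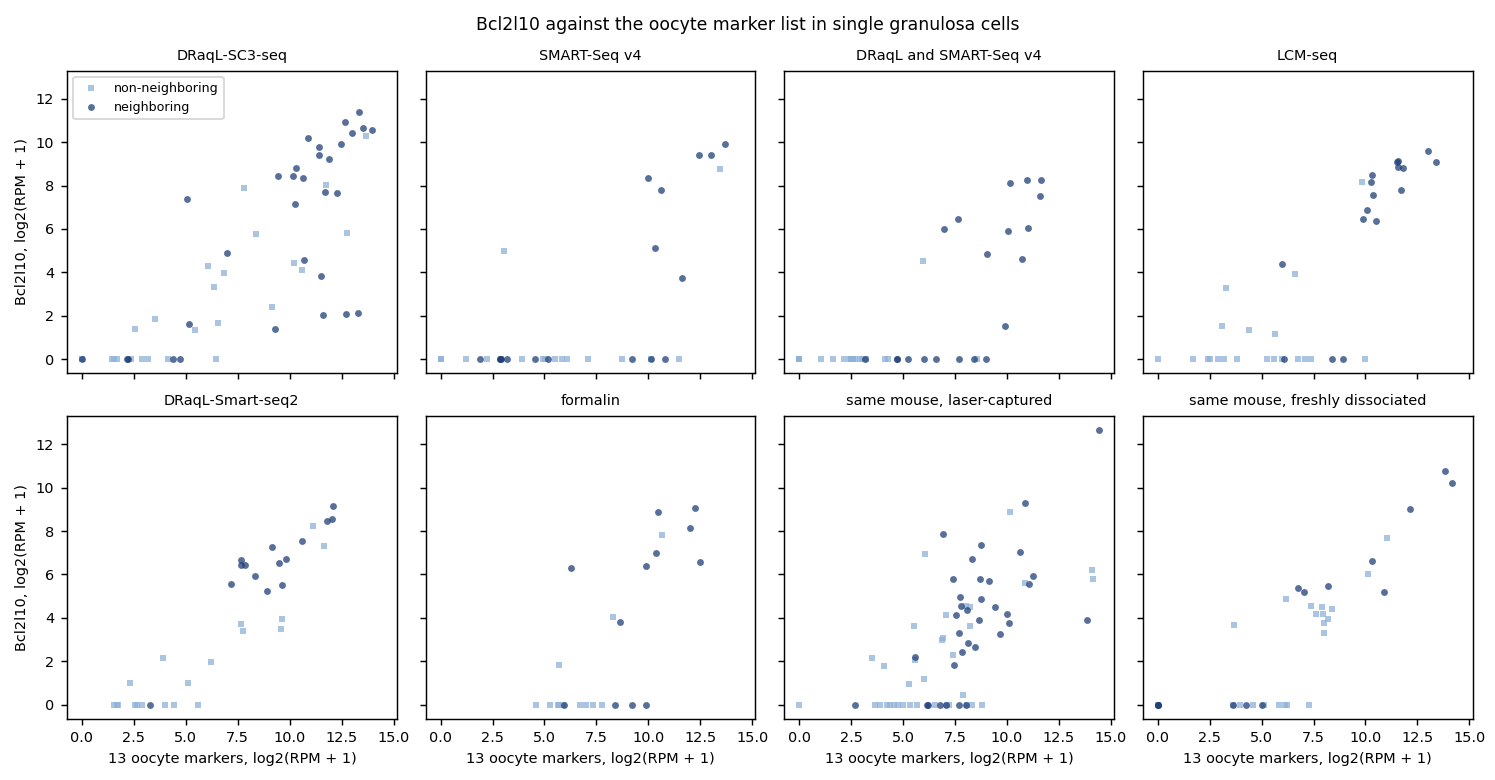
Each point is a granulosa cell, with log2(RPM + 1) of the 13 summed oocyte markers on the x axis and of Bcl2l10 on the y axis, in 8 experiments and by position. In SC3-seq cells with more oocyte marker reads have more Bcl2l10 in both positions (r = 0.697 and 0.851), while r is 0.376 to 0.399 in 3 non-neighboring groups with few Bcl2l10 reads, and neighboring cells lie further to the right by their medians in all panels except that of fresh cells.

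Bok had the higher mean log2 level in granulosa cells in the 6 experiments that also hold oocytes. In SMART-Seq v4 the medians went the other way, 0.521 RPM in granulosa cells and 9.45 RPM in oocytes. Its level by position was less even between experiments. In DRaqL-Smart-seq2 it had 2.84, 161 and 305 RPM in neighboring and 0, 73.6 and 156 RPM in non-neighboring cells, and in laser-captured cells of the same mouse 0, 83.9 and 544 RPM and 0, 6.15 and 330.2 RPM. The differences were 1.84, 2.04, 1.64, 1.83 and 2.48 in the 5 experiments past 2-fold, 0.23 in SC3-seq, 0.022 in SMART-Seq v4 and -1.27 in fresh cells, the last being 0.24 on summed counts. None of these exceeded the larger of the SDs over cells. Markers of theca and interstitium, of which 5 of 6 are in the tables, moved with position the other way: their sum ran from 0 to 156 RPM (median 2.97) in neighboring and from 157 to 2723 RPM (median 838) in non-neighboring cells of DRaqL-Smart-seq2, with Cyp17a1 at 0 in the neighboring cells, and in SC3-seq ran from 0 to 1152 RPM (median 1.68) and from 0 to 4968 RPM (median 78.1). In LCM-seq the median sum was 9.14 RPM in neighboring and 1057 RPM in non-neighboring cells, although Cyp17a1 and Star were at 0 in both. A high sum thus need not hold Cyp17a1, and it does not by itself show theca cells. The part of these markers in the values of Bok and Mcl1 was not tested.

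Mcl1 differed by -2.31 in SMART-Seq v4, -1.70 with DRaqL, -1.08 in LCM-seq, -1.24 in formalin, -0.94 and -1.03 in the laser-captured and fresh cells of the same mouse, 0.029 in DRaqL-Smart-seq2 and 0.087 in SC3-seq. It had a read in 6 of 17 neighboring and 11 of 17 non-neighboring cells of SMART-Seq v4, and all of these differences lay within the SD over cells. The difference in fresh cells turned to 2.86 as a mean of differences within library pools. Bcl2l11 was higher in neighboring cells of LCM-seq (2.26), DRaqL-Smart-seq2 (1.78) and formalin (1.52), and at 0.52, 0.054, -0.64, -0.57 and -0.28 elsewhere. Bax was even by position, with differences of -0.83 to 0.29 in the 8 experiments, beside -0.18 to 0.16 for Ftl1. Bcl2, Bcl2l1 and Bad passed 2-fold in 1, 1 and 4 experiments, and Bad with both signs.

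Pools of about 10 granulosa cells, 7 of each position, allowed a test. By edgeR's quasi-likelihood test with Benjamini-Hochberg adjustment over 9704 genes, Bcl2l10 was the only one of the 8 members called, where 0.453% of genes were called, all of them higher in neighboring pools. The 7 neighboring pools had 70.2, 91.6, 45.1, 649, 1085, 1065 and 83.3 RPM, and the 7 non-neighboring pools 12.2, 8.40, 0.524, 0, 9.50, 5.51 and 0.312 RPM. The groups did not overlap, and the log2 fold change was 6.30 (SE 1.15, edgeR p = 2.53e-05, adjusted p = 0.0205). With the pool number as a block the call was lost (log2 fold change 6.54, edgeR adjusted p = 0.0610). In the same pools the 13 oocyte markers summed to 1012, 1491, 831, 6275, 7779.9, 5858 and 773 RPM and to 129, 143, 7.60, 59.8, 114.9, 60.9 and 2.03 RPM. The 3 pools with most Bcl2l10 were the 3 with most oocyte marker reads, and r between the logs was 0.976 in the neighboring pools. Without these 3 pools the log2 fold change was 3.70 (edgeR p = 0.0110, adjusted p = 1.00), and it also lost its call without the pools numbered 4, 5 or 6 (edgeR adjusted p = 0.0559, 0.144 and 0.0858).

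The other 7 members had edgeR adjusted p of 0.998 in the pools. Bok, at 223, 553, 766, 314, 557, 382 and 670.5 RPM and 136, 292, 352, 402, 273, 0 and 361 RPM, had a log2 fold change of 0.93 (SE 0.73). Bcl2l1 had 85.2, 74.2, 264, 74.2, 71.7, 217 and 53.04 RPM and 9.60, 112.5, 85.3, 55.7, 36.1, 20.5 and 31.4 RPM, a log2 fold change of 1.30 (SE 0.68). Mcl1 was uneven among the neighboring pools, 4 at 90.1 RPM or above and 3 at 1.43 RPM or below, and its log2 fold change was -1.03 (SE 0.94). Changes of Bax (0.61, SE 0.46), Bcl2 (0.80, SE 1.66), Bcl2l11 (0.40, SE 1.45) and Bad (-0.26, SE 1.23) had unadjusted edgeR p of 0.195 to 0.832. Theca and interstitium markers ran from 0 to 2071 RPM (median 0.477) in neighboring and from 40.2 to 5239 RPM (median 892) in non-neighboring pools, and their part was not tested.

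**Figure D5:**
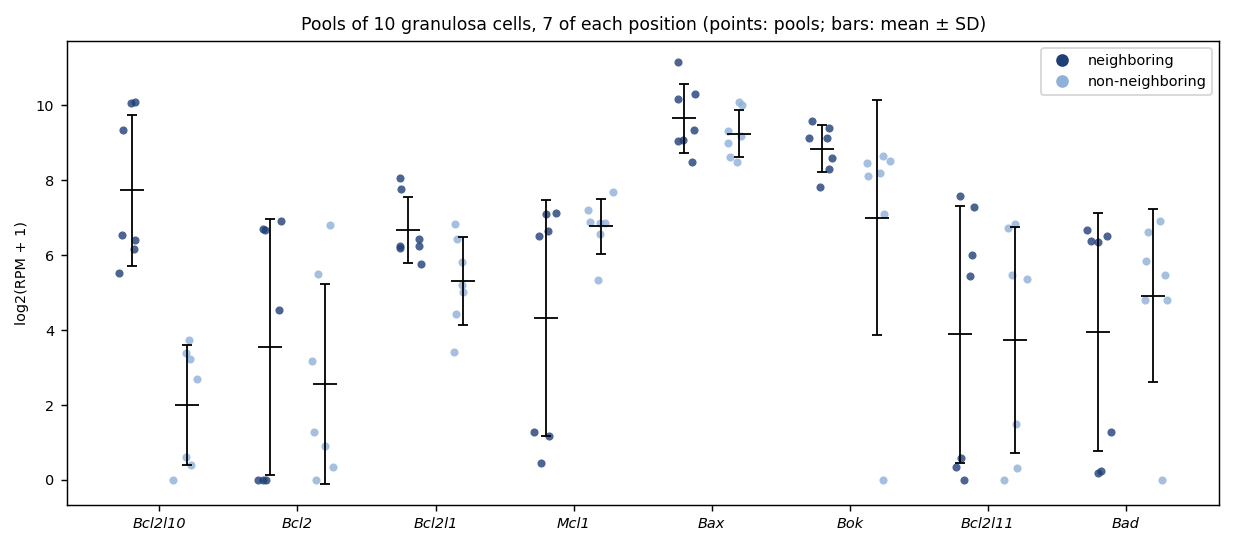
Levels of the 8 members as log2(RPM + 1) in 14 pools of about 10 granulosa cells; points are pools and bars the mean ± SD (n = 7 each). The 7 neighboring pools all lie above the 7 non-neighboring pools for Bcl2l10 and overlap with them for the other 7 members.

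The fourth comparison was of laser capture with fresh dissociation, within 1 mouse and within 1 mESC culture. The same-mouse collections also differ in amplification (DRaqL-Smart-seq2 against Smart-seq2), in follicle (secondary-antral against grown oocytes), in ovary and in the cAMP analog, none of which can be told apart from the capture. In oocytes 2 of 8 members passed 2-fold (background 40.2%). Mcl1 was higher in laser-captured oocytes, at 11.5, 23.2 and 84.9 RPM against 0, 3.78 and 13.4 RPM, a difference of 3.12 with groups that overlap. Bcl2l10 was lower in them, at 335, 1760.2 and 2553 RPM against 2678, 3248 and 5288 RPM, a difference of -1.19 with no overlap. Bax was at 80.8, 110.5 and 160.2 RPM and 31.6, 55.1 and 104.998 RPM, a difference of 0.99, as was that of Ftl1. The remaining members differed by less than 2-fold in mean log2 level, but Bcl2, with a read in 2 of 8 and 3 of 14 oocytes, differed by 3.63 on summed counts.

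In granulosa cells of this mouse 4 members passed 2-fold (background 51.9%). Bax had a median of 201 RPM in 70 laser-captured and 1135 RPM in 35 fresh cells, a difference of -2.73 beside -2.40 for Ftl1. Bad, Bok and Bcl2l11 differed by -2.47, -1.34 and 1.80, while Bcl2l10 differed by -0.20. Bcl2, with a read in 14 of 70 and 4 of 35 cells, differed by 4.34 on summed counts. Fresh granulosa cells had 12748 to 353959 reads, with 15 of 35 under 100000.

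In mESCs, where the amplification and culture were shared, 1 member passed 2-fold (background 10.1%): Bcl2l1 had 0, 0.646 and 22.4 RPM in laser-captured and 0, 3.37 and 67.8 RPM in fresh cells, a difference of -1.21 that lay within the SD over cells. Mcl1 was at 6.93 ± 1.11 (SD, n = 36) and 7.39 ± 0.66 (SD, n = 45), and Bax at 7.44 ± 1.30 (SD, n = 36) and 7.40 ± 1.10 (SD, n = 45), beside 9.19 ± 0.58 and 9.04 ± 0.51 for Ftl1. The other members differed by -0.77 to 0.054, with Bcl2l10 at 0 in both. A library labelled laser-captured is given as fresh in the study's source data; the label was followed, and without this library 1 member was past 2-fold and no member's direction turned. Formalin, read side by side since the tables were prepared apart, went with low counts of Bax: 0, 12.6 and 68.7 RPM in neighboring and 0, 15.3 and 125 RPM in non-neighboring formalin-fixed granulosa cells, and 201, 574 and 1082 RPM and 152, 564 and 1293 RPM in alcohol-fixed cells of DRaqL-Smart-seq2. Bax was 8.45% of Ftl1 in the former and 40.1% in the latter.

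A list of 27 other genes of the pathway (further Bcl2 relatives, caspases and their inhibitors, and mitochondrial factors) was read in the same way. Between oocyte stages of SC3-seq 17 passed the filter on low values, 6 of them higher and 3 lower by more than 2-fold in secondary-antral oocytes (backgrounds 32.5% and 15.1%), with a median difference of 0.28 against 0.33 over all genes. Cycs, cytochrome c, was higher by 1.97, and Diablo, which counters inhibitors of apoptosis, differed by -1.18 there, by -1.24 and -1.28 in the SMART-Seq v4 tables and by -1.15 in formalin. Bik, a BH3-only relative, was higher by 3.24 in SC3-seq, had no read in primary oocytes of both SMART-Seq v4 tables and there stood at 4.09 ± 1.87 (SD, n = 11) and 5.30 ± 0.44 (SD, n = 9) log2(RPM + 1) in secondary-antral oocytes. Birc5 (survivin) was higher in oocytes than in granulosa cells by 3.40 to 5.01 in the 6 experiments. By position, 16 passed in SC3-seq, 1 higher and 2 lower (backgrounds 5.53% and 14.8%). In the pools 15 of the 27 were tested and edgeR called none, the lowest p being that of Bnip3 (log2 fold change 3.43, SE 1.15, edgeR p = 0.00737, adjusted p = 0.622). It was the 1 of the 15 at an unadjusted edgeR p under 0.05, as were 402 of all 9704 genes tested. That count says nothing about the list. The list was chosen with results of these data known.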

How the data were processed

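The authors deposited read counts per gene for every library, and read counts per exon and per junction for the exon-wide libraries. Per their methods and processing notes, reads were trimmed with cutadapt 1.16 or fastp 0.20.0, mapped to GRCm38 with HISAT2 2.1.0 and counted with HTSeq 0.10.0 or featureCounts 2.0.1, the 3-prime reads also up to 10 kb past annotated 3-prime ends. No molecular identifiers were used.

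RPM was computed over 22060 protein-coding genes and summarised as log2(RPM + 1). A gene was called by size where the group means differed by more than 1 and averaged 1 or more. Pools were tested with edgeR 4.0.16 (R 4.3.3; quasi-likelihood, TMM, filterByExpr, Benjamini-Hochberg at 0.05). The 14 pools were treated as replicates; nothing in the labels says that they came from separate animals, so the p-values measure the spread between these pools. The test was tried on simulated counts. Intervals are exact (95%), and a count of 0 was bounded by 3 counts.

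The members and gene lists were chosen with earlier results of these data known. Named genes were all members, the 3 genes most like each member (mean of 4 or more, r of 0.7 or more), and the 3 pathway genes with the largest differences in a comparison (mean of 4 or more in a group), of which some are shown. Bik in SC3-seq and Bnip3 in the pools were added after their values were seen. Alternatives were other pseudocounts, scalings (DESeq2 1.42.0, ERCC), filters, equal depth and left-out libraries. Promoters and protein sequences were not used here.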

Additional observations from a re-analysis of the deposited data

Results flagged for a closer look

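Of 72 combinations of a member and a group of 4 to 10 samples, 12 held a sample that lay far from the others by Dixon's criterion, which chance meets in about 1 of 20. All values are log2(RPM + 1), and the cause was not tested for any.

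Among oocytes of DRaqL and SMART-Seq v4, Bad was at 0 in primary oocyte 4, the next being 5.54, and at 1.65 in secondary-antral oocyte 8, the next being 3.08. Bcl2l1 was at 4.30 in secondary-antral oocyte 7 of this experiment, the next being 5.74. Among formalin-fixed oocytes, Mcl1 was at 1.66 in primary oocyte 1, the next being 6.30, and Bcl2l11 was at 0 in secondary-antral oocyte 3, the next being 4.45. In laser-captured oocytes of the same mouse, oocyte 8 was lowest for both Bcl2l10 (8.39, the next being 10.14) and Bcl2l1 (5.09, the next being 6.29), and oocyte 7 was highest for Bok (4.46, the next being 1.82). In whole granulosa, Bax was at 8.38 in sample 1, the next being 9.04, and Mcl1 at 3.87 in sample 2, the next being 6.13. Among the non-neighboring pools, pool 6 was at 0 for both Bad (the next being 4.79) and Bok (the next being 7.10).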

How the results depend on the processing

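Of 1393 alternative values, 1291 kept their direction and side of the threshold or stayed within the spread over cells, 78 moved, 5 lost a call and 19 reversed. In the single-cell comparisons only members past 2-fold in the main setting could count as reversed. The values that moved include those of Bcl2l10 in mESCs, which had no read in either group and so no spread. The cause was not tested except where the construction shows it. The number of members past 2-fold between stages was 3 instead of 6 in SC3-seq with a pseudocount of 10 or on summed counts, and 2 instead of 5 in SMART-Seq v4 with a pseudocount of 10. By position it was 3 instead of 1 in SC3-seq (pseudocount 0.1, summed counts, or without cells high in oocyte markers), 2 instead of 4 with DRaqL and SMART-Seq v4 (summed), 5 instead of 3 in DRaqL-Smart-seq2 (summed or equal depth), 2 instead of 6 in formalin (pseudocount 10), and in fresh cells 1 instead of 4 (pseudocount 10, without libraries under 100000 reads, equal depth, or without cells high in oocyte markers) or 2 (summed). By cell type it was 3 (pseudocount 10) or 4 (summed) instead of 8 in SC3-seq, 2 instead of 6 in SMART-Seq v4 (pseudocount 10), 5 instead of 3 with DRaqL (pseudocount 0.1) and 3 instead of 5 in laser-captured cells of the same mouse (pseudocount 10). In mESCs it was 3 (pseudocount 0.1) or 0 (pseudocount 10) instead of 1. The share of all genes past 2-fold was computed in the main setting only. Whether the members moved apart from other genes is thus not known, and these counts are not results about the members.

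Reversed values were, per ERCC read between stages in DRaqL and SMART-Seq v4, Mcl1 at 1.58, Bax at 0.89 and Bad at 1.16. By position they were Bcl2l1 in formalin at 0.28 (summed) and, in fresh cells, Bcl2l10 at -0.97 (without libraries under 100000 reads), -0.91 (equal depth) and -0.093 (without cells high in oocyte markers), Mcl1 at 2.86 (within library pools) and Bok at 0.24 (summed). On summed counts by cell type they were Mcl1 at -1.11, Bcl2 at -0.63, Bcl2l11 at -1.33 and Bad at -0.77 in SC3-seq, Mcl1 at -0.22, Bcl2l1 at -0.15, Bcl2l11 at -0.95, Bax at -0.46 and Bad at -1.18 in SMART-Seq v4, and Bcl2l11 at -1.51 in laser-captured cells of the same mouse.

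In the pools edgeR called 44 genes and DESeq2 416. The count was 3 with the replicate block (pool number), 0 without the 3 pools high in oocyte markers (406 genes at an unadjusted edgeR p under 0.05; DESeq2 was not run on that subset), and 5 to 34 leaving out each pool number. Members called were 0 with the block, 0 without the high pools and 0 to 1 leaving out each number. The log2 fold change of Bcl2l10 was 6.54 with the replicate block (edgeR adjusted p = 0.0610), 3.70 without the high pools and 5.93 to 6.90 leaving out each number (edgeR adjusted p = 0.0262 to 0.144). By DESeq2, upper-quartile scaling, no filter and all genes, its adjusted p was 1.02e-06 to 0.0412. Deviations of equally numbered pools correlated at 0.0142 to 0.216, and 3 of 7 correlated best with their own number. Correlations this weak do not settle whether the numbers pair the pools.

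Junction shares moved for Bax in mESCs with a mean over libraries (exon 3 to 4 from 23.8% to 14.2%, exon 2 to 3 from 5.38% to 8.57%) and with a minimum of 3 reads (the first Bax junction in oocytes from 100% to 52.6%, Mcl1 exon 2 to 3 in mESCs from 100% to 89.3%). Depth limited the fresh granulosa cells, of which 15 of 35 held under 100000 reads.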
